A study of Mus musculus with 8 samples.

Results

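Histamine, proteases and bradykinin are released in injured or inflamed tissue and act on receptors carried by sensory neurons and by the cells around them. The genes described here encode 7 such receptors: the histamine receptors Hrh1, Hrh2 and Hrh3, the protease-activated receptors F2r, F2rl1 and F2rl2, and the bradykinin B2 receptor Bdkrb2. They were chosen by name, each from the gene symbol column of the deposited expression table, which lists 40800 distinct genes. Their transcripts were measured by RNA sequencing of dorsal root ganglia, which hold the cell bodies of the sensory neurons of trunk and limbs. The ganglia came from 4 wild-type mice, labelled C57BL/6 (numbers 1, 3, 4 and 8), and from 4 mice homozygous for a Tmem184b gene trap on the C57BL/6 background (numbers 1, 2, 3 and 4). All 8 mice were 6 months old and no treatment is named for either genotype. A gene trap is an inserted cassette that captures splicing and truncates the transcript. It is carried in the germ line, so every cell of the ganglion had the mutation, not neurons alone. Whether the ganglia of 1 animal were pooled is not given in the sources used here. Nothing in the labels says that the libraries come from separate litters or batches, so the p-values measure the spread between these 8 libraries. Running numbers in the column names, of unstated meaning, do not mix the genotypes.

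All 7 are receptors of the G protein-coupled class. The H1 receptor couples to Gq and phospholipase C and is the classical route by which histamine causes itch, the H2 receptor couples to Gs and cyclic AMP, and the H3 receptor couples to Gi and holds back transmitter release from nerve endings. Protease-activated receptors are not opened by a free ligand: a protease cuts the extracellular end of the receptor and the new end binds the receptor itself. PAR1 (F2r) is cut by thrombin, PAR2 (F2rl1) by trypsin and mast cell tryptase, and PAR3 (F2rl2) by thrombin, PAR3 being known chiefly as a partner that presents thrombin to other receptors of the family. The B2 receptor (Bdkrb2) is the constitutive receptor for bradykinin and couples to Gq, while the B1 receptor (Bdkrb1) is known as a receptor induced by injury.

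Hrh1 and F2rl2 were lower in the mutant, and the sequence upstream of each is shown because these are the members that passed the test. Both are from RefSeq (GRCm38.p6), on the plus strand, written 5′ to 3′ with each CG dinucleotide in capitals. The Hrh1 stretch is chr6:114397686-114397935, the 250 bases before the first of 4 RefSeq starts. The F2rl2 stretch is chr13:95696670-95696852, 183 bases that lie before the gene's start in both RefSeq and GENCODE.
Hrh1: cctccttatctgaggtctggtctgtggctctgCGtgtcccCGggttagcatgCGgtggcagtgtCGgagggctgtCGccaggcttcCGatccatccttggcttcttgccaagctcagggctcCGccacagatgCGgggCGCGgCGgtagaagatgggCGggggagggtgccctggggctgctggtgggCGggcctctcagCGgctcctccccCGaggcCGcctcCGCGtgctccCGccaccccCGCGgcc
F2rl2: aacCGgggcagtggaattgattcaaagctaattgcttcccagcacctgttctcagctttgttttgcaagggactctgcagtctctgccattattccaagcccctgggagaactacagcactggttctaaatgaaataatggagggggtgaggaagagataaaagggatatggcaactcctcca
The Hrh1 stretch held 21 CG, spread through its length, and the F2rl2 stretch held 1. The windows at the other 3 Hrh1 starts held 32, 3 and 1 CG, the last as few as F2rl2, and which start the ganglion uses is not known from these data. The RefSeq window at Hrh1, 250 bases long, was 71.2% G or C, and 16.4% of the 32851 mouse windows of that length held at least as many CG. The F2rl2 window of the same length, which reaches past the GENCODE start, was 48.4% G or C with 1 CG, and 18.8% of all windows held that many or fewer. The median window held 6 CG. On either strand, the letters TAAT (a core read by homeodomain factors, overlapping none of the other letters searched) occurred 3 times in the F2rl2 window and 0, 0, 1 and 2 times in the windows of Hrh1 taken in order, against 54.9% of all windows with at least 1 match. The letters TGTGGT (the RUNX core, in 14.0% of all windows) and TATAAA (the TATA box, in 12.4%) occurred in none of these 5 windows. Of the 7 members, 6 had such a window. Among members that were not called, the windows held 7 CG at Bdkrb2, 9 and 10 at the starts of Hrh2, 24 at F2r and 42 at Hrh3. The window of F2r held 1 match to TGTGGT.

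Gene levels are given as reads, as CPM (reads scaled to the library total) and as the deposited moderated log2 CPM, in which a small prior count is added before the logarithm. Library totals ran from 6183618 to 7983821 reads, which sets 1 read at between 0.125 and 0.162 CPM. The trapped gene, Tmem184b, fell from 171 to 6.65 CPM, 3.89% of the wild-type mean, and no mutant library overlapped the wild types (log2 difference -4.64, SE 0.113; limma adjusted p = 2.57e-12), in the direction of the genotype labels. Neuronal genes (Tubb3, Rbfox3, Snap25 and 5 more) summed to 8200 to 9214 CPM among wild types and 8387 to 9108 CPM among mutants. Xist, which is expressed from the inactive X chromosome of females, stood at 7.72 to 8.25 log2 CPM in 5 libraries and at -0.89 to 0.37 in wild type 3 and mutants 3 and 4. The labels give no sex. Of 15030 genes tested, 820 were called at an adjusted p of 0.05 (limma), of which 423 had more and 397 less transcript in mutant ganglia. The median gene differed by 0.066 on the log2 scale, and centring each library on its median gave 204 higher and 706 lower genes, so the share of higher calls went from 51.6% to 22.4%. Quantile normalization gave a share of 39.1%.

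The receptors differed widely in abundance, and the comparison between genes is made in CPM per kilobase of merged exons. In the wild types F2rl2 was highest, at 55.3 ± 4.51, followed by F2r at 10.4 ± 2.16 (SD, n = 4 each, CPM per kilobase). Hrh3 at 1.66 ± 0.178 and Hrh1 at 1.49 ± 0.251 came next and their libraries overlapped. Bdkrb2 stood at 0.812 ± 0.134, and below it Hrh2 at 0.502 ± 0.11 and F2rl1 at 0.452 ± 0.198, whose libraries also overlapped each other. The mutants kept F2rl2, F2r and Hrh3 in the first 3 places, at 37.3 ± 6.78, 10.6 ± 2.66 and 1.74 ± 0.158. Hrh1, at 0.730 ± 0.0891, was then level with Bdkrb2 at 0.819 ± 0.272, and no mutant library of Hrh1 reached the lowest mutant library of Hrh3. Hrh2 and F2rl1 were again lowest, at 0.357 ± 0.146 and 0.238 ± 0.181, with overlapping libraries. Lengths come from the GENCODE annotation, so the order would shift if a ganglion uses only some of a gene's exons.

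The question for each receptor was whether its transcript differs in ganglia that lack most Tmem184b transcript. Hrh1 and F2rl2 were lower in the mutant and 0 members were higher. Of all 15030 genes, 5.46% were called and 2.64% were called lower, and 12.4% had groups that did not overlap, 4.92% with the mutants below. All 7 members passed the filter, a log2 CPM above 0 in at least 4 of the 8 libraries. F2rl1 passed it with 3 wild types and 1 mutant. The difference was negative for 5 of the 7 and for 5346 of the 15030 tested genes, and its median was -0.49 over the members against 0.066 over all genes. With 7 genes of 3 families, 3 of them neighbours, these counts describe the members and do not set them apart from other genes.

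**Figure D1:**
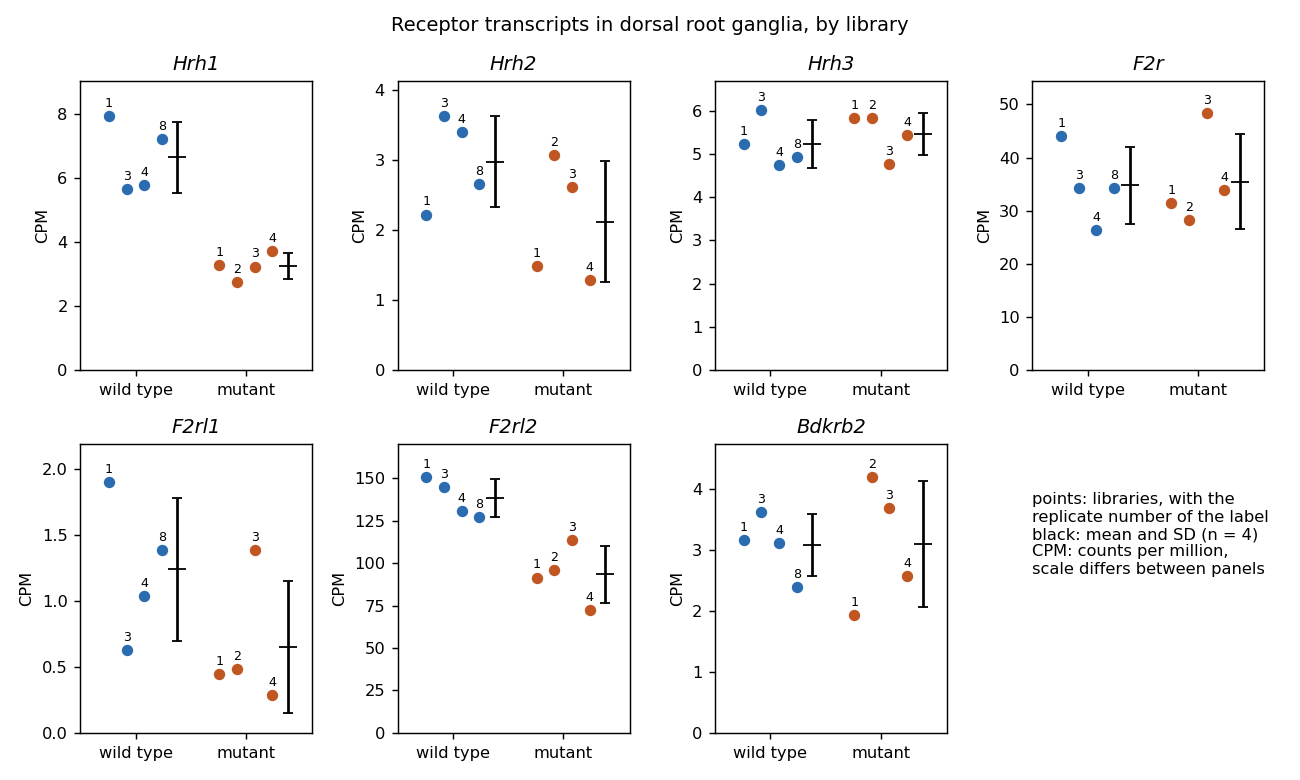
CPM of the 7 receptors in each library (points, numbered as in the labels), with the mean and SD of each genotype in black (n = 4). The mutant points lie below every wild-type point for Hrh1 (2.75 to 3.72 against 5.64 to 7.94 CPM) and for F2rl2, and the groups overlap in the other 5 panels.

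The histamine receptors were taken first. Hrh1 (ENSMUSG00000053004; chr6:114397936-114483296, plus strand, GRCm38, 5 annotated transcripts) had log2 CPM of 3.04, 2.57, 2.60 and 2.90 in wild types 1, 3, 4 and 8, and 1.84, 1.6, 1.82 and 2.0 in mutants 1 to 4. These values rest on 50, 45, 39 and 57 reads and on 22, 17, 21 and 26 reads. Every mutant library was below every wild type, and the mutants lay closer together than the wild types. Wild types 1 and 8 were above 3 and 4, an order that so few reads do not settle. Hrh1 fell from 6.64 ± 1.12 to 3.25 ± 0.396 CPM (SD, n = 4), 48.9% of the wild-type mean. The log2 difference was -0.96 (SE 0.179, 95% confidence interval -1.35 to -0.58; limma adjusted p = 0.00699). With Xist as a covariate it was -0.96 (limma adjusted p = 0.0132). The reads do not say which of the 5 transcripts, or which of the 4 RefSeq starts, was lower.

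Hrh2 (ENSMUSG00000034987; chr13:54192129-54236180, plus strand, GRCm38) had log2 CPM of 1.33, 1.97, 1.89 and 1.56 in the wild types and 0.83, 1.75, 1.54 and 0.66 among mutants. Mutants 1 and 4 were below all wild types, and mutants 2 and 3 lay among them. Mean CPM was 2.98 ± 0.656 for wild types and 2.12 ± 0.864 for mutants (SD, n = 4). The log2 difference of -0.49 (SE 0.276, 95% confidence interval -1.08 to 0.10; limma adjusted p = 0.329) did not pass the test, and its interval includes the size measured for Hrh1. With 9 to 29 reads per library, a change of that size could not be told from none. An antisense gene, Gm16578, shares 145 exon bases with Hrh2, and whether the authors' counting used the strand is not given in the sources used here.

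Hrh3 (ENSMUSG00000039059; chr2:180099465-180104488, minus strand, GRCm38) had log2 CPM of 2.47, 2.66, 2.33 and 2.38 in the wild types and 2.61, 2.61, 2.34 and 2.52 among mutants. The groups overlapped through nearly their whole range. Mean CPM was 5.23 ± 0.561 for wild types and 5.46 ± 0.496 for mutants, with a log2 difference of 0.06 (SE 0.159, 95% confidence interval -0.28 to 0.40; limma adjusted p = 0.866), so the interval does not reach the fall of Hrh1. The sign of so small a value turned with scaling, to -0.031 after median centring. The antisense gene Gm17180 shares 349 exon bases with Hrh3. The remaining histamine receptor, Hrh4, known from blood cells, had 0 reads in all 8 libraries. With 3 reads as the limit that a count of 0 allows, that leaves room for up to 0.376 to 0.485 CPM, depending on the library, for counting error only.

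Whether Hrh1 differed from its relatives was tested within libraries, as the log2 difference between a pair of receptors. Hrh1 minus Hrh3 was 0.32 ± 0.30 for wild types and -0.70 ± 0.24 for mutants (SD, n = 4), from -0.09 to 0.57 and from -1.01 to -0.51. Without correction for exon length, Hrh1 was above Hrh3 in 3 of 4 wild types and below it in every mutant. Per kilobase, the wild-type mean was 1.49 for Hrh1 and 1.66 for Hrh3, with overlapping libraries, so the order in wild types depends on the scale. The shift of -1.02 had an exact two-sided permutation p of 0.0286, the smallest that 4 against 4 allow, and 0.0857 after adjustment over the 6 pairs tested in the histamine and protease families. Hrh1 minus Hrh2 shifted by -0.47 (exact permutation p = 0.286, adjusted p = 0.343) and Hrh2 minus Hrh3 by -0.55 (exact permutation p = 0.171, adjusted p = 0.257). With 4 against 4 libraries, a p at its smallest possible value in 2 of 6 pairs adjusts to 0.0857, so these pairs could not have passed 0.05 on their own, and the adjusted values do not say whether the receptors differ.

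The 3 protease-activated receptors of the list sit together on chromosome 13. In GRCm38 F2rl1 and F2r are separated by 76.6 kb and F2r and F2rl2 by 78.4 kb, and the stretch from the first to the last covers 191.0 kb. F2rl2 (ENSMUSG00000021675; chr13:95696853-95702739, plus strand) had log2 CPM of 7.24, 7.18, 7.03 and 7.0 in the wild types and 6.52, 6.59, 6.83 and 6.19 among mutants, from 881 to 1156 and from 507 to 739 reads. All mutants were below all wild types, with mutant 3 nearest to them and mutant 4 lowest. F2rl2 fell from 138 ± 11.3 to 93.4 ± 17.0 CPM (SD, n = 4), 67.5% of the wild-type mean. The log2 difference was -0.58 (SE 0.107, 95% confidence interval -0.81 to -0.35; limma adjusted p = 0.00625), and -0.58 with Xist as a covariate (limma adjusted p = 0.0114). The call was lost when limma's variance was not allowed to depend on the mean (limma adjusted p = 0.0911).

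F2rl2 lies inside Iqgap2, which runs on the opposite strand and shares 0 exon bases with it. Iqgap2, which encodes a scaffold protein of the actin cytoskeleton, stood at 20 ± 3.80 CPM for wild types and 26.7 ± 5.69 CPM for mutants (SD, n = 4; log2 difference 0.41, SE 0.153; limma adjusted p = 0.140), the opposite sign to F2rl2. The groups of Iqgap2 overlapped, and a link between the 2 genes was not tested.

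F2r (ENSMUSG00000048376; chr13:95601803-95618487, minus strand, GRCm38) had log2 CPM of 5.47, 5.11, 4.74 and 5.11 in the wild types and 4.98, 4.84, 5.60 and 5.10 among mutants. The lowest library was a wild type and the highest a mutant. Mean CPM was 34.8 ± 7.20 for wild types and 35.5 ± 8.88 for mutants (SD, n = 4), with a log2 difference of 0.02 (SE 0.159, 95% confidence interval -0.32 to 0.36; limma adjusted p = 0.956), whose sign turned under several alternatives. Between 175 and 314 reads stood behind each library's value.

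F2rl1 (ENSMUSG00000021678; chr13:95511732-95525227, minus strand, GRCm38) had 12, 5, 7 and 11 reads among wild types and 3, 3, 9 and 2 reads among mutants. Mutant 3 fell within the wild-type range and the other mutants below it. Mean CPM was 1.24 ± 0.542 for wild types and 0.651 ± 0.497 for mutants (SD, n = 4), with a log2 difference of -0.76 (SE 0.385, 95% confidence interval -1.58 to 0.07; limma adjusted p = 0.280) that did not pass. At this depth neither a loss of the size of Hrh1's nor no change could be set aside. F2rl3, which encodes the remaining receptor PAR4, had 11 to 22 reads among wild types and 11 to 19 among mutants, with overlapping libraries and a log2 difference of 0.02 (SE 0.250; limma adjusted p = 0.970).

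Within libraries, F2r minus F2rl2 was -2.0 ± 0.23 log2 units for wild types and -1.40 ± 0.30 for mutants (SD, n = 4). F2rl2 stayed above F2r in every library, but by less in each mutant than in any wild type. This shift of 0.60 had an exact two-sided permutation p of 0.0286 and an adjusted p of 0.0857 over the 6 pairs. F2r minus F2rl1 shifted by 0.78 (exact permutation p = 0.0857, adjusted p = 0.171) and F2rl1 minus F2rl2 by -0.18 (exact permutation p = 0.686, adjusted p = 0.686). The limit set by 4 against 4 libraries holds for F2r minus F2rl2 as for Hrh1 minus Hrh3.

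Bdkrb2 (ENSMUSG00000021070; chr12:105563226-105595237, plus strand, GRCm38) had log2 CPM of 1.79, 1.97, 1.77 and 1.43 in the wild types and 1.16, 2.17, 1.99 and 1.52 among mutants. Both the lowest and the highest library were mutants. Mean CPM was 3.08 ± 0.509 for wild types and 3.10 ± 1.03 for mutants (SD, n = 4), with a log2 difference of -0.03 (SE 0.244, 95% confidence interval -0.55 to 0.49; limma adjusted p = 0.962). The inducible receptor Bdkrb1 had 0 to 1 reads among wild types and 0 to 2 among mutants, too few to test.

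**Figure D2:**
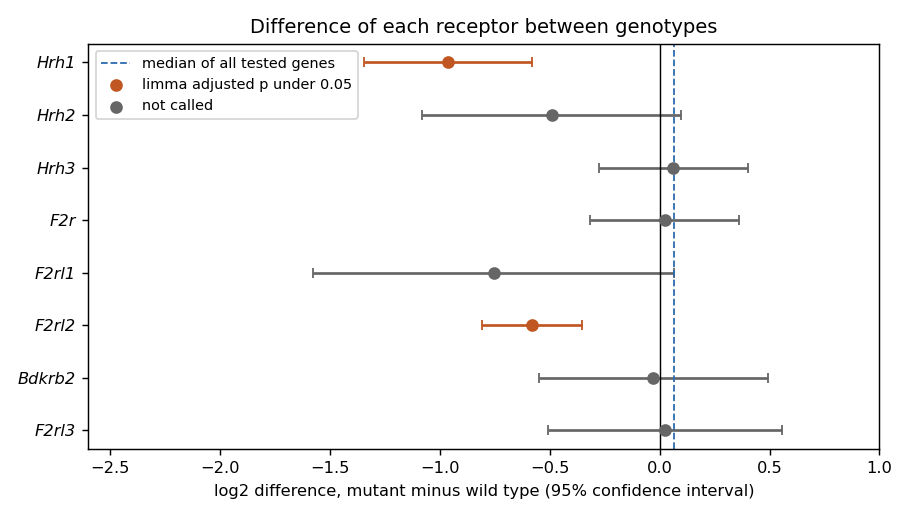
Log2 difference between mutant and wild type for the 7 receptors and F2rl3, with 95% confidence intervals from limma and the median of all tested genes (0.066) as a dashed line. The intervals of Hrh1 and F2rl2 lie wholly below 0, and those of F2rl1 and Hrh2 are wide and reach past it.

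The genes that vary most like the called receptors were found by the root mean square difference over the 8 libraries, after each gene's mean was subtracted, among 13141 tested genes with a mean log2 CPM of at least 1. Nearest to Hrh1 were Ptprk, a receptor tyrosine phosphatase (0.175 log2 units), Gbx1, a homeodomain transcription factor (0.200), and Trpc6, a diacylglycerol-activated cation channel (0.224). Nearest to F2rl2 were Pde10a, a cyclic nucleotide phosphodiesterase (0.0638), Cacna1c, the pore of an L-type calcium channel (0.0722), and Dgkh, a diacylglycerol kinase (0.0782). Likeness was measured on the same 8 libraries and takes in the difference between genotypes, so each of the 6 was also lower in the mutant (limma adjusted p = 0.000973 for Ptprk, 0.0413 for Gbx1, 0.00112 for Trpc6, 0.00512 for Pde10a, 0.00994 for Cacna1c and 0.00178 for Dgkh). The call of Gbx1 held in 7 of 19 alternatives.

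The other genes of these pathways were taken in 7 lists, from the ligands to the channels. Of 117 listed genes, 93 were tested, 4 were higher and 16 lower, beside 2.81% and 2.64% of all genes, and the median difference was -0.01. The supply and removal of histamine had 0 of 7 tested genes called by limma, 1 of them at an unadjusted p under 0.05. Hdc, which makes histamine, stood at 1.71 ± 1.05 and 1.96 ± 0.641 CPM, and Hnmt, which inactivates it by methylation, at 4.23 ± 0.410 and 6.20 ± 1.73 CPM (SD, n = 4; limma adjusted p = 0.696 and 0.192). Aoc1, the diamine oxidase, was at 0 reads throughout.

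Among proteases that can cut the receptors, and coagulation factors, 1 of 11 tested genes was lower and 0 higher. This was Plau, the urokinase plasminogen activator, at 10.1 ± 1.11 and 6.87 ± 1.08 CPM (SD, n = 4; log2 difference -0.54, SE 0.148; limma adjusted p = 0.0465), a call that held in 7 of 19 alternatives. F3, tissue factor, which starts coagulation, stood at 13.3 ± 1.47 and 20.6 ± 5.71 CPM without overlap (0.59, SE 0.168; limma adjusted p = 0.0563). With no filter, with Xist as a covariate, with a replicate block or without mutant 3, the list had 0 genes lower and 1 higher, F3. The tryptase Tpsb2, an activator of PAR2, stood at 1.5 ± 0.663 and 1.85 ± 0.752 CPM (limma adjusted p = 0.696). Tpsab1, another tryptase of the list, had 0 to 10 reads among wild types and 3 to 13 among mutants, with overlapping libraries. On these few reads its log2 difference was the highest of the list, at 1.40 with an SE of 0.529. The adjusted p from limma, 0.140, left it above the threshold. F2, the thrombin precursor, had 0 to 2 reads per library. Trypsinogen genes Prss1, Prss2 and Prss3 were at 0 reads in all 8. Of the inhibitors and thrombin-binding proteins 0 of 11 passed limma's test, with 2 at an unadjusted p under 0.05, Serpine2 (adjusted p = 0.11) and Spint1 (adjusted p = 0.105).

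Of the genes that supply or degrade kinins, 1 of 9 was called. Mme, which encodes neprilysin, a peptidase that cuts bradykinin and other peptides, rose from 16.1 ± 2.47 to 26.8 ± 1.98 CPM (SD, n = 4; log2 difference 0.74, SE 0.113; limma adjusted p = 0.00210). All mutants were above all wild types. Ece1, another bradykinin-cleaving peptidase, stood at 125 ± 11.3 and 103 ± 11.2 CPM (limma adjusted p = 0.0679). Cpn1, of the same list, stood at 7.01 ± 1.54 and 4.59 ± 0.328 CPM (limma adjusted p = 0.0737). For both the groups did not overlap. The list had 2 genes lower after median centring. It had 1 lower after quantile normalization, with voom, with a replicate block or without wild type 8. The precursor gene Kng1 was at 0 reads and Kng2 at 0 to 4, so kininogen transcript was near the floor in both genotypes.

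Signal transduction behind the receptors held most of the calls, in the list with the most tested genes. The lists were chosen with earlier results of these data known. In the list of G proteins and phospholipase C signalling, 9 of 25 tested genes were lower and 2 higher, beside 2.64% and 2.81% of all genes. The median difference of that list was -0.03. Gnaq, the G protein subunit through which H1, B2 and PAR1 signal, fell from 579 ± 18.7 to 449 ± 37.3 CPM (SD, n = 4; log2 difference -0.37, SE 0.0612; limma adjusted p = 0.00346). Its close relative Gna14 fell from 107 ± 2.31 to 67.6 ± 13.1 CPM (-0.67, SE 0.105; limma adjusted p = 0.00212), whereas Gna11 stood at 93.3 ± 5.28 and 92.6 ± 3.40 CPM (limma adjusted p = 0.950). Plcb3, the phospholipase C known to carry H1 signalling in itch neurons, fell from 792 ± 40.8 to 523 ± 67.0 CPM (-0.61, SE 0.0800; limma adjusted p = 0.000917). For each of these 3 lower genes the groups did not overlap.

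Protein kinases C, which diacylglycerol activates once phospholipase C has cut its lipid, made up 4 of the 9 lower genes. Prkca differed by -0.59, Prkcd by -0.68, Prkce by -0.30 and Prkcq by -0.83 on the log2 scale (limma adjusted p = 0.000661, 0.000493, 0.0149 and 0.000236). Prkcb, of the same family, had the opposite sign and did not pass (0.24, SE 0.0693; limma adjusted p = 0.0590). Nor did the phospholipases Plcb1 (0.23; limma adjusted p = 0.0574) and Plcb4 (0.24; limma adjusted p = 0.0650), which had the opposite sign to Plcb3 and groups that did not overlap. Dgkh, which removes diacylglycerol, differed by -0.51 (limma adjusted p = 0.00178), and Gnao1, the abundant neuronal Go subunit, by -0.54 (limma adjusted p = 0.00210). The genes that rose were Itpr3, an inositol trisphosphate receptor of the endoplasmic reticulum (143 to 188 CPM; log2 difference 0.40; limma adjusted p = 0.00346), and Pla2g4a, a cytosolic phospholipase A2 with 7 to 22 reads among wild types and 24 to 33 among mutants (1.08; limma adjusted p = 0.0433). The call of Pla2g4a held in 8 of 19 alternatives.

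Receptor kinases, arrestins and trafficking genes gave 2 lower and 0 higher calls of 16, beside 2.64% and 2.81% of all genes. These were Adrbk1, the receptor kinase GRK2 (333 to 268 CPM; log2 difference -0.31; limma adjusted p = 0.0144), and Rgs4, which shortens Gq and Gi signals (1319 to 1068 CPM; -0.31; limma adjusted p = 0.0115). Of 14 ion channels listed as acting downstream of these receptors, 4 were lower and 1 higher, beside the same shares of all genes. Trpc6 fell from 23.7 ± 1.92 to 12.8 ± 2.02 CPM (SD, n = 4; log2 difference -0.88; limma adjusted p = 0.00112). The nociceptor sodium channel Scn10a differed by -0.46 (limma adjusted p = 0.00956) and the irritant channel Trpa1 by -0.29 (limma adjusted p = 0.0335, called in 10 of 19 alternatives). Trpv1, the capsaicin receptor that H1 signalling opens, stood at 162 ± 12.1 and 131 ± 18.4 CPM and did not pass (-0.32; limma adjusted p = 0.0579).

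**Figure D3:**
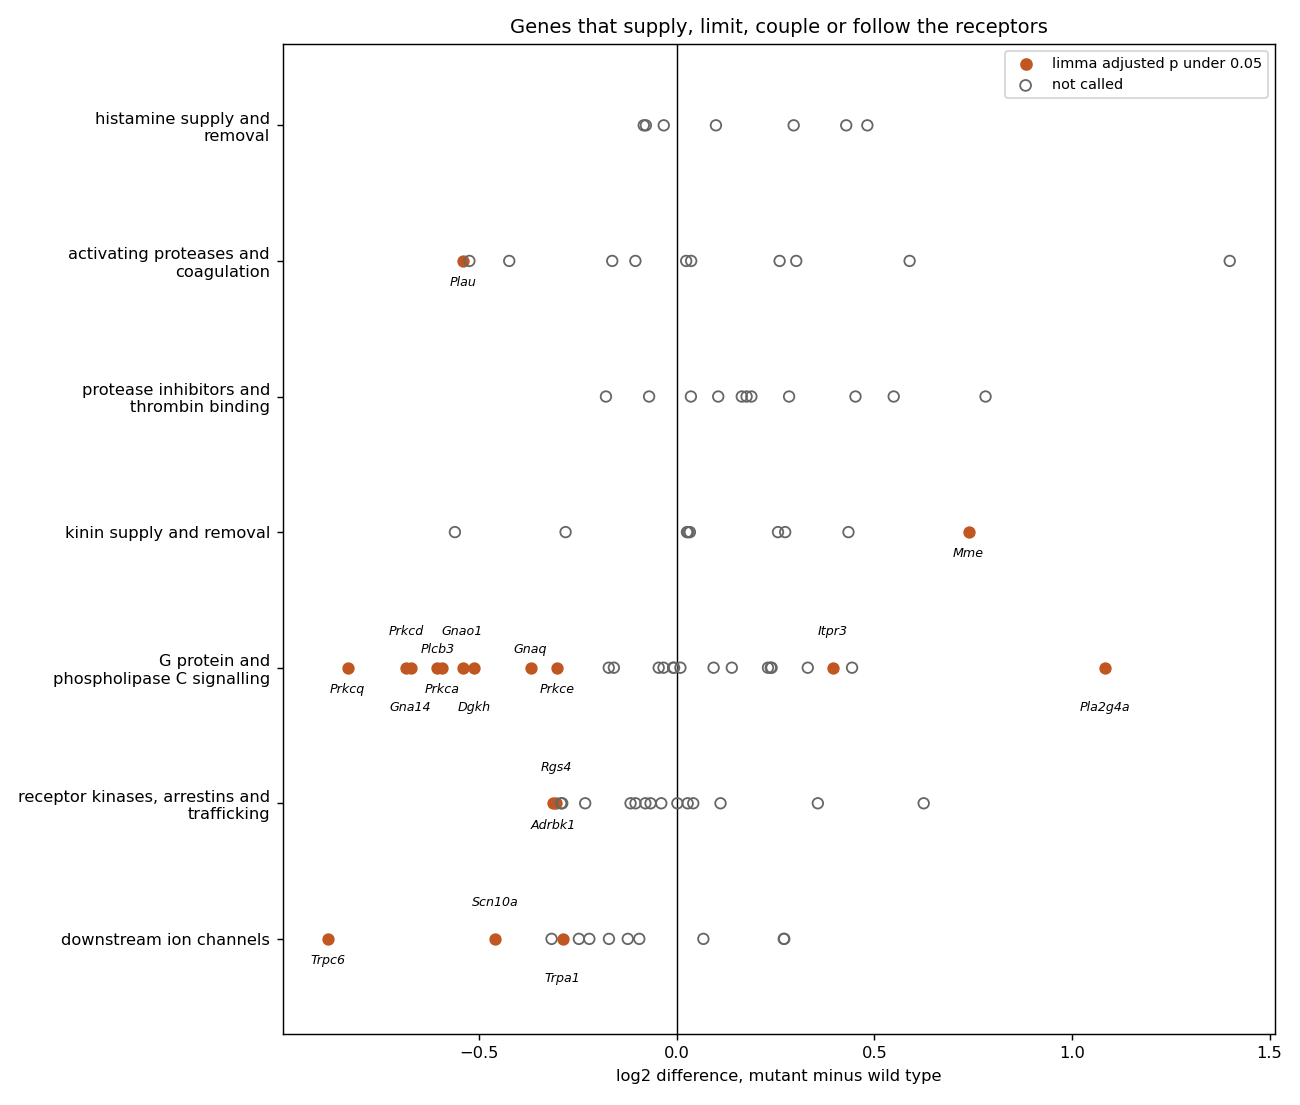
Log2 difference between mutant and wild type for the tested genes of the 7 pathway lists, 2 channels left out (filled and named where the limma adjusted p is under 0.05). The lists of ligand supply, proteases and inhibitors hold 2 filled points in all, and the list of G proteins and phospholipase C signalling holds 11, of which 9 are below 0.

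Lists of markers of ganglion cell types, chosen with earlier results of these data known, were examined beside the receptors. Genes of the NP1, NP2 and NP3 neuron lists were called lower in the mutant in the numbers below, beside 2.64% of all tested genes. Ganglia were sequenced whole, so fewer cells of a type and less RNA per cell cannot be told apart. Markers of NP3 itch neurons were lower for 7 of 8 genes (Nppb, Sst, Il31ra, Osmr, Cysltr2, Htr1f and Jak1), with a summed level of 672 to 720 CPM among wild types and 458 to 500 CPM among mutants. Nppb had 13 to 40 reads among wild types and 0 to 1 among mutants. It passed the filter through the wild types alone, the group where it is high, so its call adds little to the count. NP2 itch neuron markers were lower for 2 of 5 (Mrgpra3 and Mrgprx1), with sums of 64.4 to 99.4 and 34.8 to 66.1 CPM. The call of Mrgpra3 held in 9 of 19 alternatives and that of Mrgprx1 in 16 of 19. All 7 markers of NP1 neurons (Mrgprd, Lpar3, Lpar5, Gfra2, Plxnc1 and P2rx3 among them) were lower, with sums of 1418 to 1538 and 787 to 1135 CPM. The NP1 sum was lowest in mutant 4 and highest among mutants in mutant 3, as were the NP2 sum and F2rl2. Sums of satellite glia, fibroblasts and macrophages had the reverse, lowest among mutants in mutant 3 and highest in mutant 4. In that order they stood at 105% and 150%, 106% and 152%, and 113% and 178% of the wild-type mean. For Hrh1 mutant 4 was the highest mutant, on 26 reads beside 22, 17 and 21 in mutants 1 to 3. So few reads do not settle the order of the mutants for Hrh1, and a link between these orders was not tested.

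As a percent of the wild-type mean, the mutant mean was 48.9% for Hrh1 and 67.5% for F2rl2, beside 69.4% for the NP3 sum, 62.2% for the NP2 sum and 63.8% for the NP1 sum. The NP3 sum was mostly Jak1, a kinase that many cell types express, at 544 ± 12.4 and 439 ± 19.9 CPM (SD, n = 4), 80.7% of the wild-type mean. The other NP3 markers were far lower, from 1.17% for Nppb, 3.47% for Sst and 9.77% for Il31ra through 18.7% for Cysltr2, 37.8% for Osmr and 42.9% for Htr1f to 59.6% for Nts, which was not called. Peptidergic nociceptor markers had 0 of 7 genes called and a mutant mean of 98.4%, and the 8 pan-neuronal genes 0 calls and 100.4%. Calca, at 100.2%, gave 675 of the 1275 CPM of the peptidergic sum in the wild types, while Trpv1 stood at 80.7% and Tac1 at 108.8%. Of the pan-neuronal genes, Rbfox3 stood at 83.6% and Snap25 at 116.3%, each without overlap (limma adjusted p = 0.0711 and 0.0856). The part of the NP markers in the lower receptors, and in the lower signalling genes and channels, was not tested. Of the non-neuronal lists, those of satellite glia (Glul, 1 of 5), Schwann cells (Ncmap, 1 of 6), fibroblasts (Dcn, 1 of 5) and macrophages (Cd163, 1 of 5 tested) each had 1 gene higher, beside 2.81% of all genes. Their sums ranged over 105% to 150%, 98.7% to 118%, 106% to 152% and 113% to 178% of the wild-type mean in the mutants. Each range overlapped that of the wild types, at 93.2% to 106%, 84.9% to 112%, 78.7% to 145% and 81.6% to 125%. Differences were negative for 0 of 5 genes of satellite glia and 0 of 5 of fibroblasts. They were negative for 1 of 6 genes of Schwann cells and 1 of 5 tested genes of macrophages, beside 5346 of all 15030. Fabp7 of satellite glia stood at 100.6% and Cd68 of macrophages at 88.7%. The part of these lists in the results was not tested either. Endothelial markers, which mark a known site of F2r, had 0 of 7 called, with sums of 84.0 to 119 CPM in the wild types and 88.5 to 125 CPM among mutants. Platelet markers summed to 3.65 to 7.14 and 5.68 to 11.6 CPM with 0 of 3 called. Mast cell markers, the cells that store histamine and tryptase, had 0 of 6 called and summed to 4.26 to 9.63 and 5.23 to 11.4 CPM, with 0 of the 8 genes at 0 reads in all libraries. Skeletal muscle markers ranged from 2.86 to 31.4 CPM and from 9.41 to 149 CPM, with 0 of 4 called.

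**Figure D4:**
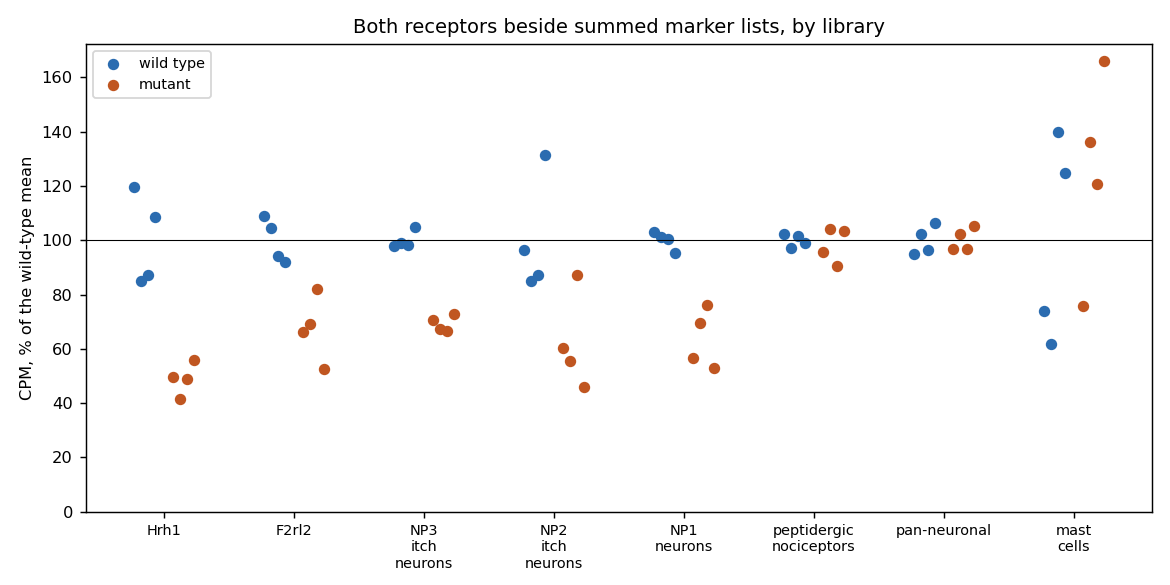
Hrh1, F2rl2 and the summed CPM of marker lists in each library, as a percent of the wild-type mean of the same row (points are libraries, blue wild type and orange mutant). Mutant libraries lie at 41.4% to 56.0% for Hrh1, 52.4% to 82.2% for F2rl2 and 52.8% to 76.1% for NP1 markers, and around 100% for peptidergic and pan-neuronal markers.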

How the data were processed

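RNA sequencing of 8 dorsal root ganglion samples was deposited as 1 table of moderated log2 CPM, per the file headers. The submitters' processing notes name Salmon 0.11.1, DESeq2 and mm9 without their roles, and the strand setting is not given in the sources used here. Of 41422 lines, 402 identifiers appeared more than once with the same values and were used once. All columns share a floor, and above it every value was a whole number of reads to within 0.1 read, which gave reads, CPM and library totals, with a prior averaging 2 reads. Changes on the moderated scale understate those of genes with few reads, and limits for a count of 0 (3 reads) cover counting error only. The column names carry running numbers of unstated meaning. Those of the mutants are consecutive and all lie below those of the wild types, so a batch recorded there cannot be told apart from genotype.

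Genes with log2 CPM above 0 in at least 4 of 8 samples entered a linear model in R 4.3.3 with limma 3.58.1 (lmFit, eBayes with a variance trend), mutant minus wild type, two-sided, with no covariate and Benjamini-Hochberg adjustment over the 15030 genes. An adjusted p under 0.05 was a call. Pairs of receptors were compared by exact permutation over 70 assignments. The 19 alternatives of a gene's call covered the filter, 1 CPM added, scaling, the variance model, Xist, limma's voom on recovered reads, a replicate block and leaving out each sample. The members, lists and rules were chosen with earlier results of these data known. The genes named are the members, the rest of their families, Tmem184b, every called gene of the pathway lists (of which 2 are not reported here), called genes of the marker lists and the 3 genes nearest to each called member. Iqgap2, Xist and list genes that were not called were named after their values were seen. Coordinates and exon lengths are those of GENCODE M21 (GRCm38), looked up by Ensembl identifier. Tables and plots used Python 3.11.15, numpy 2.4.6, pandas 2.3.3, scipy 1.17.1 and matplotlib 3.10.9.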

Additional observations from a re-analysis of the deposited data

Results flagged for a closer look

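One value stood far from the rest of its group. Gnao1 was at 9.13 log2 CPM in mutant 4, on 3909 reads, while the other mutants lay between 9.51 and 9.58. The gap was above Dixon's critical value for 4 samples. It was found among 58 groups of 4 examined for receptors and called pathway genes, where chance alone gives about 2.9. Without mutant 4 the gene stayed lower in the mutant.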

How the results depend on the processing

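Both receptor calls held in 18 of 19 alternatives. Leaving out 1 sample gave -1.03 to -0.88 for Hrh1 (limma adjusted p = 0.00857 to 0.0342) and -0.68 to -0.46 for F2rl2 (0.000891 to 0.0295). F2rl2 was not called without the variance trend (-0.58, limma adjusted p = 0.0911), which left 1 member called, 5 pathway genes lower and 1 higher, and 67 higher and 75 lower genes in all. The labels do not say whether the replicate numbers pair the samples. Differently numbered samples were not compared, so the correlations of deviations of same-numbered samples cannot decide it. They were 0.0806, 0.0414 and 0.0575 for numbers 1, 3 and 4. With these numbers as a replicate block, in 6 samples, Hrh1 was at -0.85 (limma adjusted p = 0.0495) and F2rl2 at -0.64 (0.00346). The same 6 samples without the block gave -0.85 for Hrh1 (0.0543), with 1 member called lower, 2 pathway genes higher and 180 genes higher, from fewer samples.

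Signs turned for members that were not called. Hrh3 was at -0.031 after median centring and -0.072 after quantile normalization. F2r was at -0.070 and -0.036 in the same order, -0.025 with Xist and -0.024 with voom, and F2rl3 at -0.069, -0.15 and, with voom, -0.034. F2rl3 was at -0.099 in the 6 samples, with or without the block. F2rl1 minus F2rl2 shifted by 0.13 with 1 CPM added (exact permutation p = 0.600). Leaving out 1 sample gave -0.14 to 0.14 for F2r, -0.18 to 0.15 for Bdkrb2 and -0.12 to 0.16 for F2rl3.

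Genes called higher numbered 204 after centring, 271 after quantile normalization and 253 with voom, and genes called lower 706 after centring. At an adjusted p under 0.1 there were 876 higher and 612 lower genes, and with a log2 difference of at least 1 as well as 0.05, 47 and 32. Leaving out 1 sample gave 174 to 572 higher genes and 230 to 427 lower. Pathway genes then numbered 2 to 7 higher (7 without mutant 3, 2 without wild type 1, wild type 3 or mutant 1, 2 or 4) and 13 to 16 lower. Of the 20 called pathway genes 6 were called in every alternative (Mme, Plcb3, Prkca, Prkcd, Prkcq and Trpc6), and 0 turned sign. The cause of these moves was not tested. Depth was too low to test Hrh4 and Bdkrb1, and Hrh2, F2rl1, F2rl3 and Bdkrb2 rest on 2 to 29 reads per library.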
